A study of Homo sapiens with 43 samples.

Results

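The 9 carriers that bring glutamate, arginine and neutral amino acids across the cell membrane are described here in a human cell line treated with stress hormones. They are SLC1A1, SLC1A3, SLC1A4, SLC1A5, SLC7A1, SLC7A2, SLC7A6, SLC38A1 and SLC38A2. They were chosen by family and substrate, from the solute carrier families SLC1, SLC7 and SLC38, and are 9 of the 20052 genes in the count table. All 9 passed the filter on low counts, as did 16816 genes in all.

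The cells were HMC3, an immortalised human line distributed as microglia, here at a single passage and not a primary culture. Flasks were kept for 3 days in medium with dexamethasone at 1 or 0.01 µM, with hydrocortisone at 10 or 0.01 µM, with the ethanol vehicle that belonged to each of these 4 doses, or with nothing added. On day 3 cells of each flask were harvested, and some were reseeded in plain medium for a washout of 3 more days, so that every day 6 flask, vehicle included, had 3 days without additive behind it. The 43 libraries of total RNA formed 17 groups. On day 3 there were 3 libraries of each of the 4 hormone doses, 3 of each of the 4 vehicles and 3 of untreated medium. On day 6 there were 3 libraries of each hormone dose and 1 of each of the 4 vehicles. The design allows each dose to be set against its own vehicle, the doses against each other, and day 6 against day 3. Replicates were flasks of 1 line, so p-values measure the spread between flasks.

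Total counts ran from 7638840 to 24426643 per library, of which 9.9 to 94.86% (median 29.26%) fell on ribosomal RNA repeats, and that share was over 75% in 7 libraries of 7 groups. The other genes together received 1083397 to 17542030 counts. FKBP5 and TSC22D3, classic targets of the glucocorticoid receptor, were used to check the hormone labels of day 3. Both rose with dexamethasone at 1 µM (log2 change 1.44 and 3.99) and at 0.01 µM (1.23 and 3.05). They also rose with hydrocortisone at 10 µM (1.22 and 3.26). With hydrocortisone at 0.01 µM the changes were -0.11 and 0.11, so these genes gave no sign of that dose. Of 10 microglia markers 2 were in the table, with median levels over all libraries of 0.273 (CSF1R) and 0.248 (TREM2) CPM of the non-ribosomal counts. By contrast 7 of 9 fibroblast and pericyte markers were in the table. Of these 7, COL1A1 had the highest median, 1680, followed by VIM at 1630, and DCN the lowest, 0.41. The label "microglial cell" was thus not matched by the defining markers of microglia. Of 6 astrocyte markers 2 were in the table. GJA1, a gap junction gene, stood at a median of 194 and ALDH1L1 at 4.06.

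Amino acid carriers decide which amino acids a cell can take up and which it exchanges. SLC1 carriers couple glutamate uptake to sodium (SLC1A1, SLC1A3) or exchange neutral amino acids (SLC1A4, SLC1A5). SLC7A1 and SLC7A2 carry arginine, lysine and ornithine, SLC7A6 exchanges arginine for glutamine and sodium in a complex with the heavy chain SLC3A2, and SLC38A1 and SLC38A2 draw glutamine and alanine inwards with sodium. In brain, glial SLC1A3 clears glutamate from around synapses, and macrophages use SLC7A2 to supply arginine to nitric oxide synthase and arginase.

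Levels of different genes were compared as CPM, the counts scaled to a common library size by TMM, per kilobase of exon. Over the 19 libraries of vehicle or medium, SLC38A2 had the highest level, with a median of 30.2 (range 23.8 to 33), and SLC1A5 followed at 25.6 (22.6 to 30.8). Those ranges overlapped, whereas the next carriers lay well below them. SLC38A1 stood at 7.61 (6.43 to 8.35) and SLC7A1 at 7.03 (6.37 to 9.88), again overlapping. SLC7A6 (4.81), SLC1A4 (2.91) and SLC7A2 (2.04) formed separate steps, each without overlap with its neighbours. The glutamate carriers came last: SLC1A1 at 0.344 (0.169 to 0.498) and SLC1A3 at 0.312 (0.195 to 0.477) overlapped. Hormone-free HMC3 thus held mostly transcripts of glutamine and neutral amino acid carriers. In raw counts SLC1A1 had 3 to 58 reads per library and SLC1A3 had 7 to 219, which limits their precision, while SLC38A2 had 439 to 7881.

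Vehicle and medium did not separate on day 3. None of the 9 carriers passed the test between the 12 vehicle and the 3 medium libraries (quasi-likelihood test of edgeR with p adjusted over all genes by Benjamini-Hochberg, threshold 0.05). None of the 16816 genes did either (0%; 0 by DESeq2), although 903 had an unadjusted p under 0.05, as did 0 of the carriers, and leaving out 1 medium library gave 3 genes. The carriers' log2 differences ran from -0.11 for SLC1A1 to 0.15 for SLC7A1. Between day 3 and day 6 vehicle libraries none of the carriers passed either (0 by DESeq2), against 0.505% of all genes (0.22% higher and 0.285% lower). SLC7A2 alone among the 9 had an unadjusted p under 0.05, with a log2 difference of 0.17 and an adjusted p of 0.294.

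**Figure D1:**
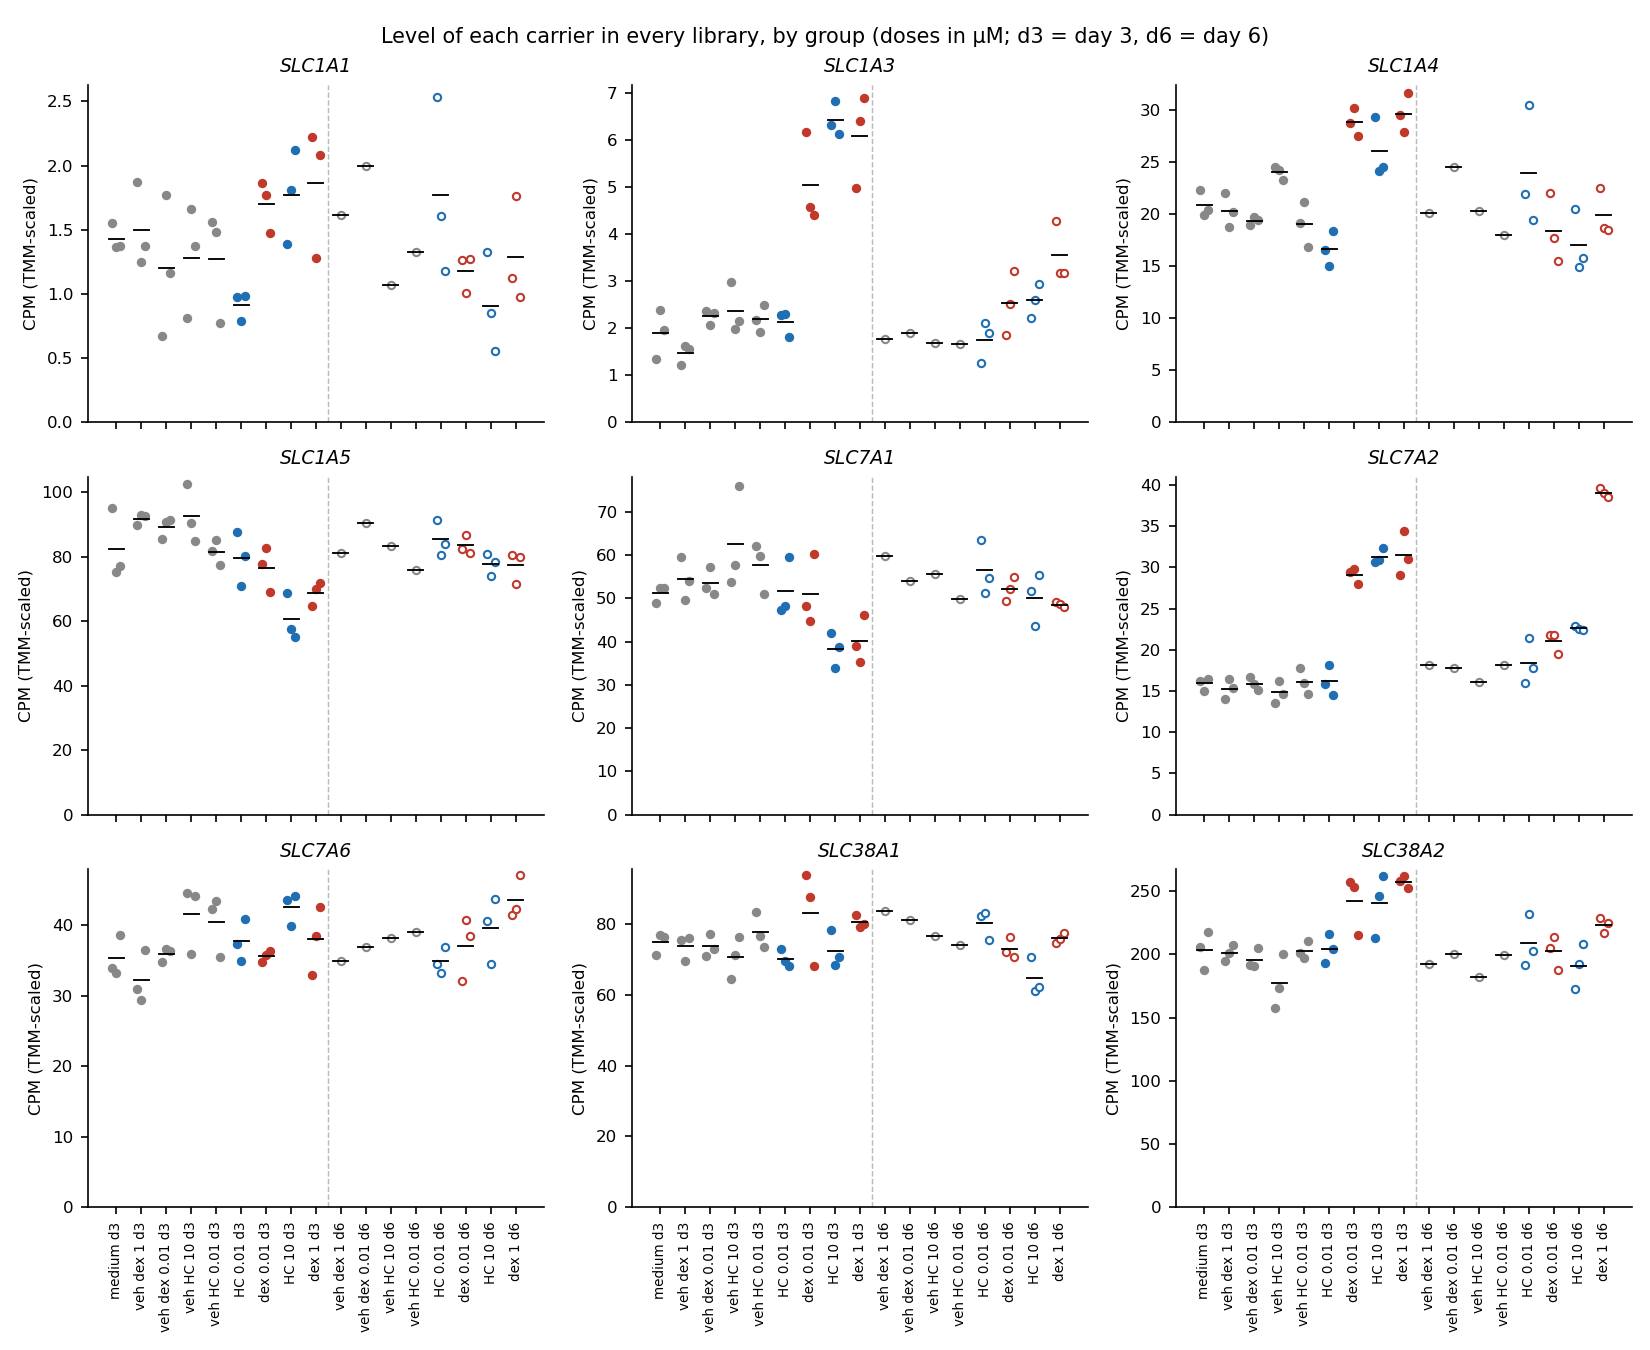
Level of each of the 9 carriers in all 43 libraries, as CPM of the TMM-scaled library (vertical axis from 0), by group (horizontal axis; veh, vehicle; dex, dexamethasone; HC, hydrocortisone; doses in µM; d3 and d6, day 3 and day 6). Points are libraries (grey without hormone, red dexamethasone, blue hydrocortisone, open on day 6) and bars are group means; SLC7A2 lies at 28.0 to 34.4 CPM in the 9 libraries of the 3 active doses of day 3, above the 13.6 to 17.7 of the 15 hormone-free libraries.

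Promoter sequences show what lies before the starts of genes that the hormones moved, and are given for 2 carriers that rose with dexamethasone and 2 that fell. RefSeq (GRCh38.p14) had 14 windows for 8 of the 9 carriers, that is for all but SLC7A2. Each run below is the 250 bases before a transcription start, 5′ to 3′ on the gene's strand, and capitals mark matches to a searched motif. SLC1A3 is at chr5:36596338-36596587 (plus strand, the most upstream of its 3 RefSeq starts), SLC1A4 at chr2:64988229-64988478 (plus), SLC1A5 at chr19:46788595-46788844 (minus) and SLC7A1 at chr13:29595689-29595938 (minus).
SLC1A3: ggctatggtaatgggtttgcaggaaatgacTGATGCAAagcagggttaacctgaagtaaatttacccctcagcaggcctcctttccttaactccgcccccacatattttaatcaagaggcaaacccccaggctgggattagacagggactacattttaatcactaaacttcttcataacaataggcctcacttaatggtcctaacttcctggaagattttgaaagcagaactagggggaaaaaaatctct
SLC1A4: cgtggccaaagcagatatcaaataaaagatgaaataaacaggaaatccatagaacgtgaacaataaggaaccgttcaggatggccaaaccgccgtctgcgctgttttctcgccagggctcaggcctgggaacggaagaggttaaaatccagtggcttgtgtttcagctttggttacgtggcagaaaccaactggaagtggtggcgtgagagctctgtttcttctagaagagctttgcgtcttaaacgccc
SLC1A5: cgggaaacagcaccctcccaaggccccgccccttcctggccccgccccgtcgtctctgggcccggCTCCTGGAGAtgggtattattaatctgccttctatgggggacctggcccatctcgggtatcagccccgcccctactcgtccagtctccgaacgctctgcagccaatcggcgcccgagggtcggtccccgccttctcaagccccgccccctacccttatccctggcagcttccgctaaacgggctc
SLC7A1: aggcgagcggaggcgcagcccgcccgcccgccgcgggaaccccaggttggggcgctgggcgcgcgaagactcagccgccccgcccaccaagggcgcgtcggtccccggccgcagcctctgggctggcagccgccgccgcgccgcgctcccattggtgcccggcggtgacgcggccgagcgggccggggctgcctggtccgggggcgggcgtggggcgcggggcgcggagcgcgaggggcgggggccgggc
The capitals in SLC1A3 are TGATGCAA, a match to the amino acid response element TGATGNAA, 220 bases before the start. In SLC1A5 they are CTCCTGGAGA, a match 185 bases before the start to the inverted repeat of negative glucocorticoid response elements (CTCCGGAGA, CTCCNGGAGA or CTCCNNGGAGA). The printed windows of SLC1A4 and SLC7A1 hold none of the motifs searched. GC content was 43.2% in the SLC1A3 window, 48.4% in that of SLC1A4, 66.8% in SLC1A5 and 84.4% in SLC7A1. The SLC1A4 window not printed, which begins at 64989149, had 79.6%, and that of SLC38A2, which also rose, 73.6%. The SLC1A3 windows not printed begin at 36606356 and 36606704. They had 47.2% and 46.4% and held none of the motifs searched.

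Motifs were searched on both strands of the 250 bases before each start. The full palindrome of the glucocorticoid receptor, AGAACANNNTGTTCT, was in none of the 14 windows of the carriers and in 0.00285% of all 35116 windows. The single arm AGAACA, a part of that palindrome, was in 1 window of the carriers, of SLC38A1, and in 12.4% of all. The inverted repeat was in 1 of 14 against 1.43%, the amino acid response element in 2 of 14 (SLC1A3 and another SLC1A5 start) against 3.14%, and the E-box CACGTG in 1 of 14 (a further SLC1A5 start) against 6.34%. The cAMP response element TGACGTCA was in none of the 14 and in 1.65% of all. A match describes letters in these windows and not a site bound by a factor.

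Treatment with dexamethasone at 1 µM raised a glutamate carrier, an arginine carrier and 2 neutral carriers and lowered another arginine carrier and another neutral carrier. SLC1A3, SLC7A2, SLC1A4 and SLC38A2 rose and SLC1A5 and SLC7A1 fell, 6 of 9 carriers, where 22.6% of all genes passed the test (10.3% higher and 12.3% lower). SLC1A1, SLC7A6 and SLC38A1 did not pass. The median log2 change of the 9 was 0.31, beside 0.02 over all genes tested. In bulk RNA, more cells of a kind and more RNA per cell cannot be told apart.

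With dexamethasone at 0.01 µM no carrier was called lower. The same 4 carriers that rose at the higher dose passed the test (4 higher, 0 lower), where 14% of all genes did (6.15% higher and 7.84% lower). Hydrocortisone at 10 µM moved 5 carriers, SLC1A3, SLC7A2 and SLC38A2 upwards and SLC1A5 and SLC7A1 downwards, against 13.1% of all genes (5.58% higher and 7.5% lower). With hydrocortisone at 0.01 µM none of the 9 passed (edgeR; 0 by DESeq2, and 0 with an unadjusted p under 0.05) and 0% of all genes did, with 398 of 16816 at an unadjusted p under 0.05 and 1 gene called by DESeq2. Each dose was compared with its own vehicle, so these 4 comparisons share no library.

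**Figure D2:**
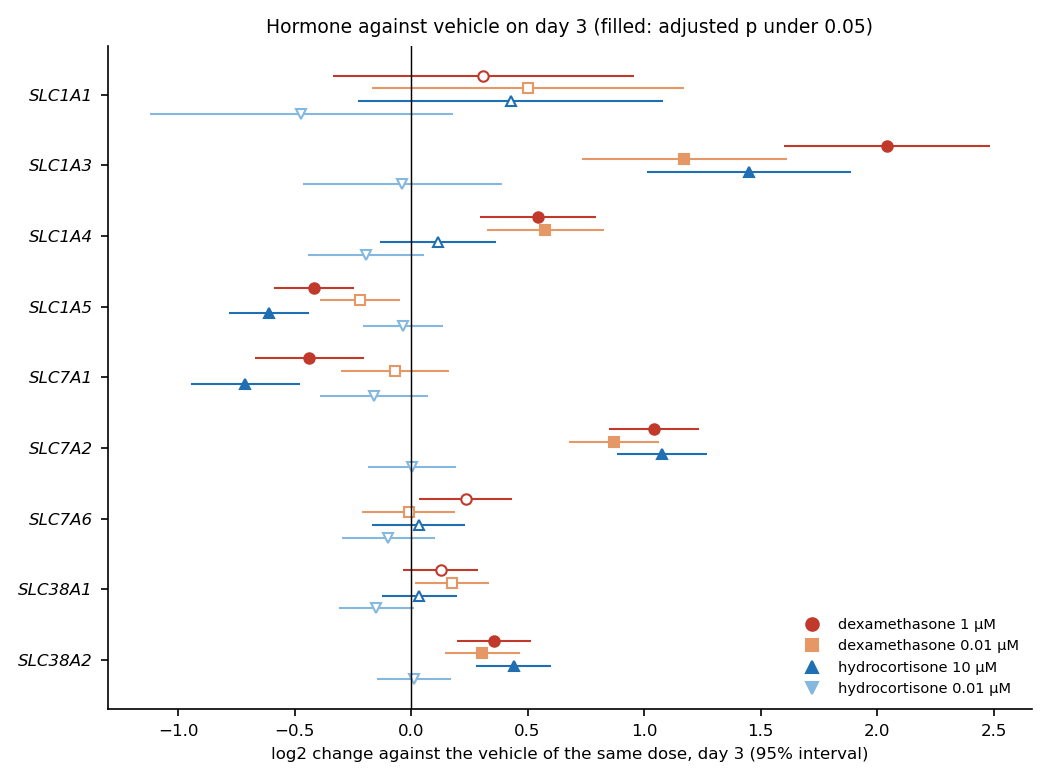
Log2 change of each carrier on day 3 against the vehicle of the same dose (horizontal axis), with the 95% interval of the fit, for the 4 hormone doses (n = 3 and 3). Filled symbols passed the test at an adjusted p of 0.05; SLC1A3 and SLC7A2 lie furthest to the right, SLC1A5 and SLC7A1 to the left, and all 9 intervals of hydrocortisone at 0.01 µM include 0.

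SLC1A3 (ENSG00000079215; GRCh38 chromosome 5, 36606355 to 36688334, plus strand) encodes EAAT1, a glutamate carrier of glia, and had the largest rise of the 9. Its level was 1.22, 1.63 and 1.57 CPM in the 3 vehicle libraries of the higher dexamethasone dose and 4.98, 6.41 and 6.91 with the hormone. No hormone library came near the vehicle libraries. The mean rose from 1.47 ± 0.22 to 6.10 ± 1.00 CPM (SD, n = 3 each), a 4.12-fold rise (log2 change 2.04, SE 0.22, adjusted p = 5.73e-10). This vehicle group was the lowest of the 4, and against all 4 vehicle groups the log2 change was 1.58 (adjusted p = 1.82e-11).

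At 0.01 µM dexamethasone SLC1A3 stood at 4.42 to 6.18 CPM against 2.07 to 2.36 in its vehicle. The log2 change was 1.17 (SE 0.22, adjusted p = 9.34e-05). Its lowest value came from the library with 94.86% ribosomal counts, where SLC1A3 had 9 reads. With hydrocortisone at 10 µM the 3 libraries had 6.33, 6.83 and 6.14 CPM and their vehicle 2.99, 1.99 and 2.16. All hormone libraries lay above all vehicle libraries again (log2 change 1.45, SE 0.22, adjusted p = 2.34e-06). At 0.01 µM hydrocortisone it held 2.28, 2.31 and 1.82 CPM, within the 1.93 to 2.49 of its vehicle or just under it, and the 95% interval of the log2 change ran from -0.46 to 0.39.

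SLC1A1 (ENSG00000106688; chromosome 9, 4490444 to 4587469, plus strand), which encodes the largely neuronal glutamate carrier EAAT3, passed in none of the 16 comparisons as fitted, and in some other settings of 1 washout change given further on. Its level was 0.56 to 2.53 CPM over all 43 libraries. The log2 changes of day 3 were 0.31, 0.50 and 0.43 for the 3 active doses and -0.47 for hydrocortisone at 0.01 µM, all with 95% intervals that included 0. The interval for dexamethasone at 1 µM reached from -0.34 to 0.96, so a rise of the size seen for SLC7A2 lay just outside it. SLC1A1 overlaps SPATA6L on the opposite strand and whether reads were counted by strand is not given, so reads of the pair may be mixed.

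SLC7A2 (ENSG00000003989; chromosome 8, 17497088 to 17570573, plus strand) encodes CAT2, an arginine carrier with an inducible form in macrophages. Vehicle libraries of the 1 µM dose had 14, 16.5 and 15.4 CPM and hormone libraries 29.1, 34.4 and 31.0. The level rose 2.06-fold ( log2 change 1.04, SE 0.10, adjusted p = 7.37e-12). With 0.01 µM dexamethasone it was 29.4, 29.8 and 28.0 CPM against 16.7, 15.8 and 15.1 (log2 change 0.87, adjusted p = 2.13e-09). With 10 µM hydrocortisone it was 30.6, 30.9 and 32.3 CPM against 13.6, 16.3 and 14.7 (log2 change 1.07, adjusted p = 6.86e-12). Across the 3 active doses SLC7A2 lay between 28.0 and 34.4 CPM. At 0.01 µM hydrocortisone SLC7A2 had 15.8, 18.2 and 14.5 CPM, inside or beside the 14.6 to 17.7 of its vehicle (95% interval -0.19 to 0.19).

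SLC7A1 (ENSG00000139514; chromosome 13, 29509410 to 29595688, minus strand), which encodes CAT1, the constitutive arginine carrier of most cells, went the other way. With dexamethasone at 1 µM its libraries had 39.1, 35.4 and 46.3 CPM against 59.5, 49.7 and 54.1. The groups did not overlap (log2 change -0.44, SE 0.12, adjusted p = 0.00429). Hydrocortisone at 10 µM gave 42.0, 33.9 and 38.8 CPM against 53.8, 57.9 and 76.0. The log2 change was -0.71 (SE 0.12, adjusted p = 1.56e-05), while against all 4 vehicle groups it was -0.57 and against medium -0.42 (adjusted p = 0.00694). Dexamethasone at 0.01 µM gave 48.2, 44.8 and 60.3 CPM, spanning the 51.0 to 57.2 of its vehicle (log2 change -0.07, adjusted p = 0.771).

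SLC7A6 (ENSG00000103064; chromosome 16, 68264516 to 68301823, plus strand), the y+LAT2 light chain, passed in no comparison. Its level stayed between 29.4 and 47.1 CPM in all libraries. The largest of the log2 changes on day 3, 0.24 with dexamethasone at 1 µM, had an adjusted p of 0.083, and against all 4 vehicle groups it was 0.02. SLC7A6 overlaps SLC7A6OS on the opposite strand, whose reads may be counted with it.

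The balance of the arginine carriers was read within each library as the ratio of SLC7A2 to SLC7A1 counts per kilobase, which needs no library scaling. In the 15 hormone-free libraries of day 3 the ratio was 0.188 to 0.324, with a median of 0.278. Dexamethasone at 1 µM took it to 0.653 to 0.947, dexamethasone at 0.01 µM to 0.451 to 0.647 and hydrocortisone at 10 µM to 0.708 to 0.888. None of these 9 libraries overlapped the hormone-free ones, while hydrocortisone at 0.01 µM (0.237 to 0.367) did. SLC7A1 nevertheless remained the more abundant transcript per kilobase in all of them.

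**Figure D3:**
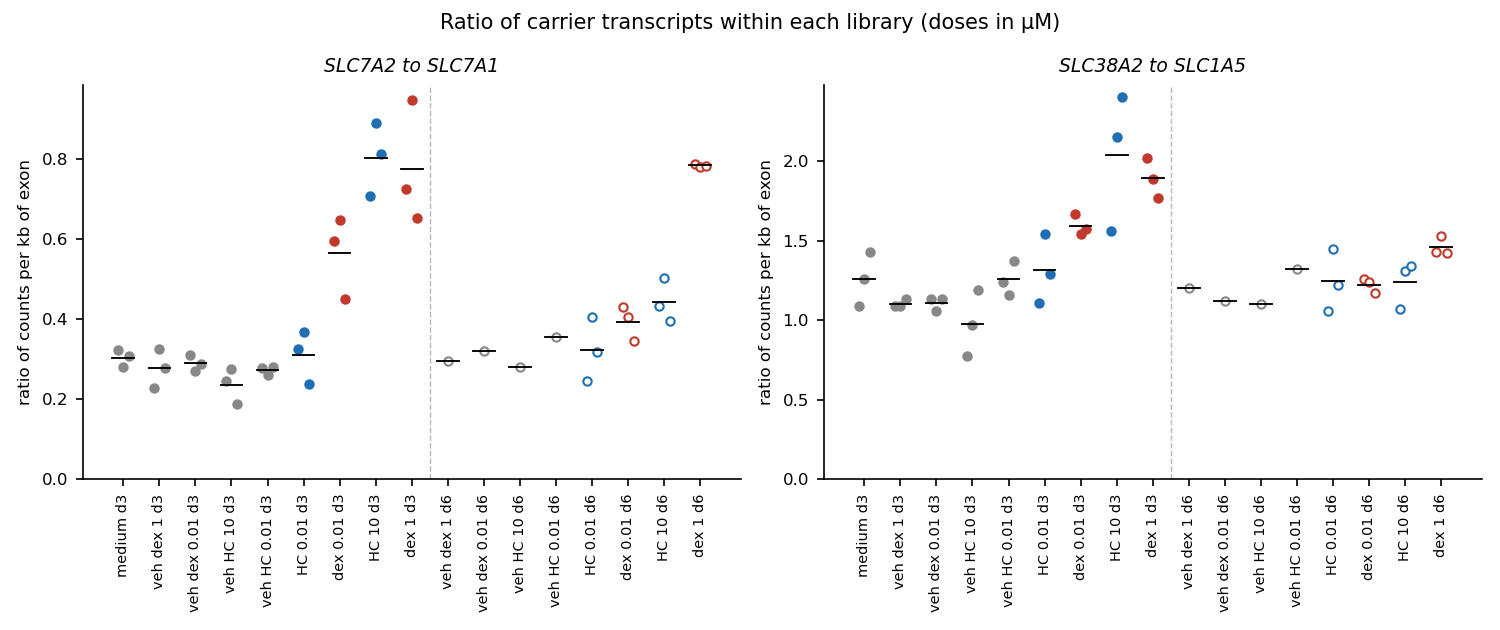
Ratio of SLC7A2 to SLC7A1 (left) and of SLC38A2 to SLC1A5 (right) within each library, as counts per kilobase of exon (vertical axes from 0), by group (abbreviations and colours as in the plot of levels). On day 6 the 3 libraries after dexamethasone at 1 µM keep an SLC7A2 to SLC7A1 ratio of 0.78 to 0.787, against 0.281 to 0.354 in the 4 vehicle libraries.

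SLC1A4 (ENSG00000115902; chromosome 2, 64988477 to 65023865, plus strand), which encodes ASCT1, an exchanger of alanine, serine and cysteine, rose with both doses of dexamethasone. At 1 µM it stood at 29.5, 27.8 and 31.6 CPM against 21.97, 18.7 and 20.2 (log2 change 0.55, SE 0.12, adjusted p = 0.000837). At 0.01 µM it stood at 28.7, 30.1 and 27.5 CPM against 18.9, 19.7 and 19.4 (log2 change 0.58, SE 0.12, adjusted p = 0.000786). Neither dose overlapped its vehicle. With hydrocortisone at 10 µM it had 29.3, 24.1 and 24.5 CPM against 24.5, 24.2 and 23.2, which overlapped (log2 change 0.12, adjusted p = 0.621). That vehicle group was the highest of the 4, and against all 4 vehicle groups SLC1A4 passed with hydrocortisone at 10 µM too (log2 change 0.34, adjusted p = 0.00679).

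SLC1A5 (ENSG00000105281; chromosome 19, 46774883 to 46788594, minus strand) encodes ASCT2, a glutamine exchanger of growing cells, and fell with the high doses. Dexamethasone at 1 µM gave 64.7, 70.1 and 72.0 CPM against 89.9, 93.1 and 92.6, and all hormone libraries lay below all vehicle libraries (log2 change -0.41, SE 0.08, adjusted p = 0.000223). Against medium the log2 change was -0.26 (adjusted p = 0.0229). Hydrocortisone at 10 µM gave 68.9, 57.7 and 55.2 CPM against 102.5, 90.4 and 84.8 (log2 change -0.61, SE 0.09, adjusted p = 5.07e-07). With dexamethasone at 0.01 µM it had 77.8, 82.8 and 69.2 CPM against 85.4, 90.8 and 91.6. That difference did not pass (log2 change -0.22, adjusted p = 0.0767), but did against all 4 vehicle groups (log2 change -0.21, adjusted p = 0.0204). SLC1A5 overlaps AC008622.2 on the opposite strand, whose reads may be counted with it.

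SLC38A2 (ENSG00000134294; chromosome 12, 46358189 to 46372867, minus strand) encodes SNAT2, the sodium-coupled glutamine and alanine carrier that cells raise when amino acids run short. It stood at 258, 262 and 252 CPM with dexamethasone at 1 µM against 195, 201 and 208 (log2 change 0.36, SE 0.08, adjusted p = 0.000666). At 0.01 µM it had 257, 254 and 215 CPM against 192, 191 and 205 (log2 change 0.31, SE 0.08, adjusted p = 0.00564). Hydrocortisone at 10 µM gave 213, 246 and 262 CPM against 157, 174 and 200 (log2 change 0.44, SE 0.08, adjusted p = 6.88e-05). The rises were small but the libraries of each pair of groups did not overlap. Against medium the rise with hydrocortisone was 0.24 (adjusted p = 0.0298). Fitted on its own 6 libraries, the rise at 0.01 µM dexamethasone had an adjusted p of 0.0531.

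SLC38A1 (ENSG00000111371; chromosome 12, 46183063 to 46270017, minus strand), which encodes the related carrier SNAT1, did not pass on day 3. Its level was 79.1 to 82.5 CPM with dexamethasone at 1 µM and 69.6 to 76.2 in the vehicle (log2 change 0.13, adjusted p = 0.272). With dexamethasone at 0.01 µM it had 93.9, 87.6 and 68.2 CPM, the low value being that of the library with 94.86% ribosomal counts. Without that library the log2 change was 0.30 and passed, and with it 0.18 (adjusted p = 0.141). It also passed against all 4 vehicle groups (0.17, adjusted p = 0.0416) and by DESeq2 (0.23, adjusted p = 0.0447). Within each library the ratio of SLC38A2 to SLC1A5 per kilobase was 0.775 to 1.43 in the 15 hormone-free libraries of day 3, 1.77 to 2.02 with dexamethasone at 1 µM, 1.54 to 1.67 at 0.01 µM and 1.56 to 2.4 with hydrocortisone at 10 µM.

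Leaving out the 7 libraries rich in ribosomal counts, a choice made after the data were seen, kept all 15 of the day 3 calls above. Against untreated medium in place of vehicle all 15 passed as well. Fibroblast and pericyte markers summed to 4950 to 5310 CPM of non-ribosomal counts with dexamethasone at 1 µM and 4150 to 5160 in the 15 hormone-free libraries, microglia markers (2 genes) to 0.837 to 1.75 and 0.169 to 1. Within the fibroblast and pericyte list COL1A2 (-0.62) and VIM (-0.41) fell with dexamethasone at 1 µM and COL1A1 (0.42), PDGFRB (0.31) and DCN (4.15) rose, 5 of 7. The median level of DCN over all libraries, with and without hormone, was 0.41. Of the astrocyte markers GJA1 (log2 change -0.36) and ALDH1L1 (-0.69) fell. The part of these markers in the carriers' changes was not tested.

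Dose was compared as the difference of the effects of 2 doses, each against its own vehicle. For dexamethasone, 1 minus 0.01 µM, none of the 9 carriers passed (edgeR; 0 by DESeq2, 2 with an unadjusted p under 0.05), and 0.0476% of all genes did (0.0178% higher and 0.0297% lower). SLC1A3 had the largest difference, 0.87 on the log2 scale (95% interval 0.26 to 1.48, adjusted p = 0.533), and SLC7A1 had -0.37 (-0.69 to -0.04, adjusted p = 0.691). For SLC7A2 the interval was -0.10 to 0.44, for SLC1A4 -0.38 to 0.32 and for SLC38A2 -0.18 to 0.28. The intervals do not show that the doses act alike.

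For hydrocortisone, 10 minus 0.01 µM, 5 of the 9 carriers passed, against 4.09% of all genes (1.73% higher and 2.36% lower). SLC1A3 (1.49, adjusted p = 0.001) and SLC7A2 (1.07, adjusted p = 1.79e-07) were higher at the higher dose. SLC38A2 was higher as well (0.43, adjusted p = 0.0167), while SLC1A5 (-0.58, adjusted p = 0.0014) and SLC7A1 (-0.55, adjusted p = 0.0398) were lower. SLC7A1 lost the call when any of 6 libraries was left out (highest adjusted p 0.15), and SLC38A2 when any of 3 libraries or the 7 ribosomal-rich libraries were (highest adjusted p 0.0933).

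The 2 hormones were given at a matched dose of 0.01 µM. Dexamethasone is a synthetic relative of hydrocortisone with an added fluorine and methyl group and a further double bond in the first ring. The difference of their vehicle-corrected effects was tested for this 1 pair, and 3 of the 9 carriers passed, where 4.98% of all genes did (2.07% higher and 2.91% lower). SLC1A3 differed by 1.21 on the log2 scale (95% interval 0.60 to 1.82, adjusted p = 0.01), SLC7A2 by 0.87 (0.60 to 1.14, adjusted p = 1.55e-05) and SLC1A4 by 0.77 (0.41 to 1.12, adjusted p = 0.00409), all higher with dexamethasone. The other 6 did not pass. SLC38A1 came at 0.33 (0.10 to 0.55, adjusted p = 0.0879) and SLC38A2 at 0.29 (0.07 to 0.52, adjusted p = 0.138), and both passed without the dexamethasone library of 94.86% ribosomal counts (0.45 and 0.37), SLC38A1 by DESeq2 as well (0.38). The intervals of SLC1A5 (-0.43 to 0.06), SLC7A1 (-0.24 to 0.42) and SLC7A6 (-0.19 to 0.37) included 0. The doses of 1 µM dexamethasone and 10 µM hydrocortisone differ, and their values above are not compared.

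After 3 days of washout the carriers separated. SLC7A2 stayed high after dexamethasone at 1 µM, SLC1A3 was still above vehicle, and the other 7 did not pass (2 of 9, both higher, against 10.2% of all genes, 5.13% higher and 5.03% lower). Day 6 libraries were compared with the 4 single vehicle libraries of that day. SLC7A2 had 39.7, 39.0 and 38.5 CPM against 18.1, 17.8, 16.1 and 18.2. All 3 lay above every other library of the study (2.23-fold; log2 change 1.16, SE 0.09, adjusted p = 1.56e-13). SLC1A3 had 4.29, 3.19 and 3.18 CPM against 1.78, 1.90, 1.68 and 1.67 (log2 change 1.02, SE 0.20, adjusted p = 0.000266). Against its own single vehicle library the adjusted p of SLC1A3 was 0.0707, with the log2 change at 1.00.

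SLC38A2 on day 6 after dexamethasone at 1 µM had 229, 217 and 225 CPM against 192, 200, 182 and 200. Its log2 change was 0.21 (95% interval 0.06 to 0.36, adjusted p = 0.0644), and it passed with RLE size factors (0.0406), by DESeq2 (0.043) and without the 7 ribosomal-rich libraries (0.0338). SLC1A4 came at -0.05 (-0.28 to 0.18), SLC1A5 at -0.09 (-0.25 to 0.07) and SLC7A1 at -0.17 (-0.39 to 0.04). The last 3 intervals all include 0.

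After dexamethasone at 0.01 µM none of the carriers passed on day 6 (edgeR; 0 by DESeq2, 2 with an unadjusted p under 0.05), where 0.0833% of all genes did (0.0476% higher and 0.0357% lower). SLC7A2 had 21.9, 21.8 and 19.4 CPM (log2 change 0.26, adjusted p = 0.378). After hydrocortisone at 10 µM 2 of 9 passed, against 0.892% of all genes (0.422% higher and 0.47% lower). SLC7A2 had 22.9, 22.5 and 22.4 CPM (log2 change 0.37, adjusted p = 0.0238) and SLC38A1 70.6, 61.0 and 62.3 against 74.2 to 83.7 (log2 change -0.29, adjusted p = 0.0461). Both calls were lost in several settings, among them against the single vehicle library of that dose (highest adjusted p 0.368 for SLC7A2 and 0.978 for SLC38A1) and without hydrocortisone replicate 3 or 4. After hydrocortisone at 0.01 µM none passed (edgeR; 0 by DESeq2, 0 with an unadjusted p under 0.05), against 0.0892% of all genes.

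**Figure D4:**
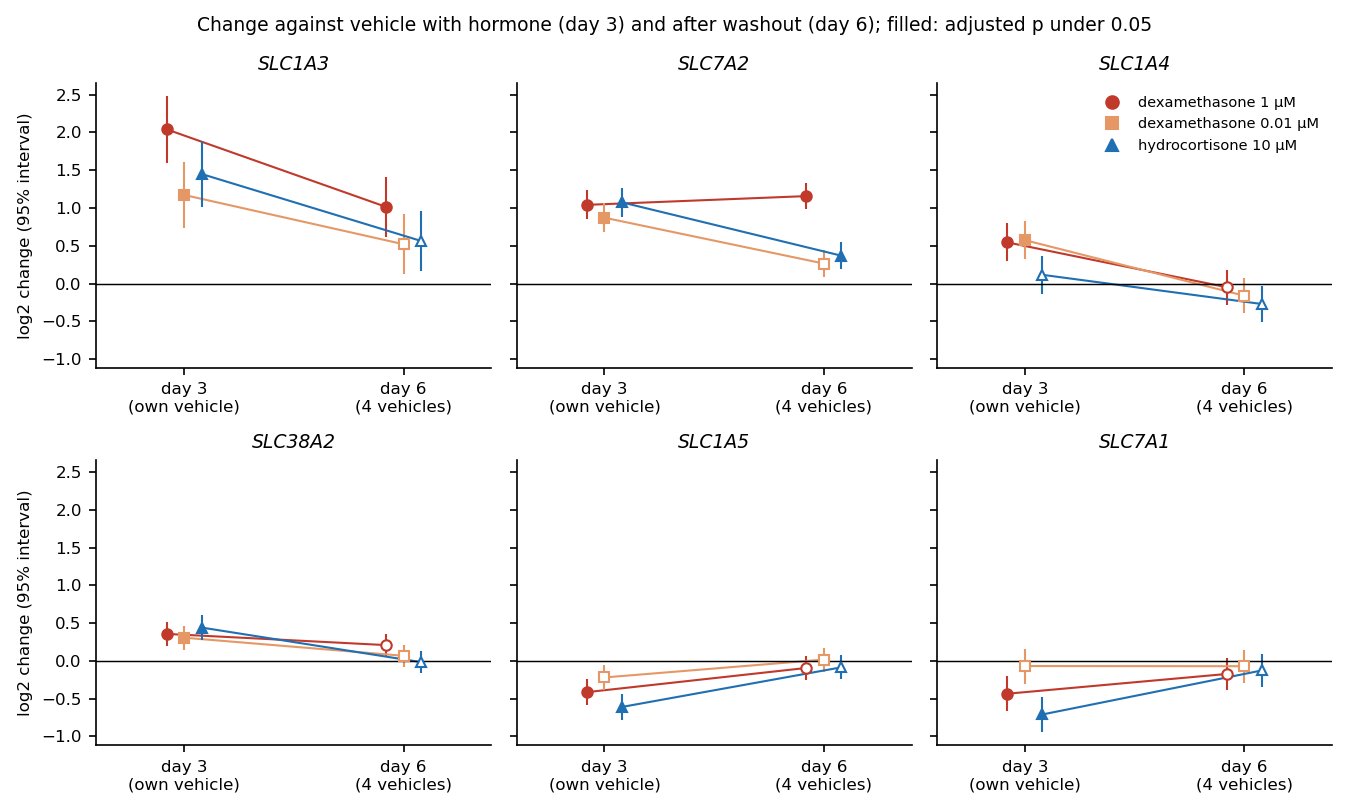
Log2 change against vehicle (vertical axis) with the 95% interval, on day 3 with hormone (against the vehicle of the same dose) and on day 6 after washout (against the 4 vehicle libraries), for 6 carriers and 3 hormone doses. Filled symbols passed the test; after dexamethasone at 1 µM SLC7A2 moves from 1.04 to 1.16 while SLC1A4 moves from 0.55 to -0.05.

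To test the change over washout, the effect of day 3 was subtracted from that of day 6, with the vehicle groups of each day averaged as the control. For dexamethasone at 1 µM only SLC1A4 passed among the 9 (-0.57, adjusted p = 0.0323, against 1.68% of all genes, 1.11% higher and 0.571% lower), and it lost the call without the 7 ribosomal-rich libraries or without any of 5 single libraries (highest adjusted p 0.227). Without those 7 libraries SLC7A1 passed instead (0.54, adjusted p = 0.0361). SLC7A2 changed by 0.14 (95% interval -0.10 to 0.37) and SLC1A3 by -0.56 (-1.09 to -0.04, adjusted p = 0.371). For dexamethasone at 0.01 µM SLC1A4 (-0.65, adjusted p = 0.00404) and SLC7A2 (-0.64, adjusted p = 0.000133) passed, against 6.55% of all genes (4.01% higher and 2.54% lower). SLC1A3 had -0.80 with an adjusted p of 0.0556, and passed with the ribosomal genes left out (-0.96), by DESeq2 (-0.94), without the 7 ribosomal-rich libraries (-0.91) and with the flask as a block (-1.02). SLC38A1 had -0.28 (adjusted p = 0.0723) and passed in the same 4 settings (-0.31 to -0.34, adjusted p 0.012 to 0.0467). The difference between the 2 doses in how SLC7A2 changed over washout was not tested.

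For hydrocortisone at 10 µM 6 of 9 carriers passed, against 6.97% of all genes (4.31% higher and 2.66% lower). SLC1A3 (-1.09, adjusted p = 0.00452), SLC7A2 (-0.64, adjusted p = 0.000132), SLC1A4 (-0.61, adjusted p = 0.00721) and SLC38A2 (-0.33, adjusted p = 0.0291) were lower by this measure. SLC1A5 (0.46, adjusted p = 0.00253) and SLC7A1 (0.45, adjusted p = 0.0442) were higher. On day 6 SLC1A4 had 20.5, 14.9 and 15.8 CPM against 17.9 to 24.5 in the 4 vehicle libraries, the first value inside that range. This log2 change of -0.27 did not pass (adjusted p = 0.35). SLC1A1 did not pass (-1.11, adjusted p = 0.0762), but did with ribosomal genes left out (-1.18, adjusted p = 0.0211), with the replicate block (-1.23, adjusted p = 0.044), by DESeq2 (-1.15, adjusted p = 0.0489) and with the flask as a block (-1.29, adjusted p = 0.00749). SLC38A1 passed with the flask block too (-0.25, adjusted p = 0.0411). The call of SLC1A4 was lost without hydrocortisone replicate 3 of day 6 (adjusted p = 0.0515), that of SLC7A1 in 14 of 29 alternatives (highest adjusted p 0.165) and that of SLC38A2 in 5 of 29 (highest 0.169).

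Relatives of these carriers moved in part. Of 22 further SLC1, SLC7 and SLC38 genes 12 were in the table and 9 were tested, and 3 rose and 0 fell with dexamethasone at 1 µM, beside 10.3% and 12.3% of all genes. SLC38A10 rose (log2 change 0.62, adjusted p = 3.97e-05), as did the arginine carrier SLC7A3 (2.32, adjusted p = 0.0119) from 1, 4 and 5 reads to 10, 16 and 9. SLC38A4, a liver-type neutral carrier, rose by 3.63 (adjusted p = 0.000131) from 1, 5 and 5 reads to 25, 50 and 23. At 0.01 µM 3 rose (SLC38A10, SLC38A6 and SLC38A4; 6.15% of all genes rose), and with hydrocortisone at 10 µM SLC38A4 (2.80) and SLC7A3 (2.53) rose and SLC7A5, the leucine carrier LAT1, fell (-0.47, adjusted p = 0.00632), where 5.58% of all genes rose and 7.5% fell. SLC38A4 and SLC7A3 had 0 to 7 reads in the hormone-free libraries of day 3. On that day they reached the filter's minimum count of 10 only with active doses, so their calls as higher are not independent of the filter. SLC7A11, the cystine and glutamate exchanger, did not pass in any of these 3 comparisons (0.12, 0.26 and -0.39) but was lower on day 6 after hydrocortisone at 10 µM (-0.97, adjusted p = 0.00837). It was picked out after its values were seen.

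Of 11 heavy chains and other carriers 9 were tested. With dexamethasone at 1 µM SLC43A2 rose (0.42, adjusted p = 0.0119), where 10.3% of all genes rose. SLC3A2, the partner of SLC7A5 and SLC7A6 (-0.30, adjusted p = 0.00718), and the taurine carrier SLC6A6 (-0.33, adjusted p = 0.0095) fell, where 12.3% of all genes fell. At 0.01 µM SLC6A6 (-0.34) and SLC6A15 (-2.33) fell, where 6.15% of all genes rose and 7.84% fell. SLC6A15 had a median of only 0.564 CPM of non-ribosomal counts over all libraries, against 60.2 for SLC6A6. With hydrocortisone at 10 µM none passed, where 5.58% of all genes rose and 7.5% fell.

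Enzymes that use arginine, ornithine and glutamate, listed with the polyamine regulators OAZ1 and AZIN1, were called lower more than higher. Of 28 genes, 22 were tested, and 1 rose and 10 fell with dexamethasone at 1 µM, where 10.3% of all genes rose and 12.3% fell (median log2 change -0.18, beside 0.02 over all genes). OAZ1 (-0.30) and AZIN1 (-0.33), which are not enzymes, were among those that fell. The polyamine enzymes spermine synthase SMS (-0.76, adjusted p = 1.29e-10) and ornithine decarboxylase ODC1 (-0.69, adjusted p = 2.48e-09) fell, as did the aspartate aminotransferase GOT1 (-0.50, adjusted p = 2.35e-06). GLUD1, glutamate dehydrogenase, rose (0.70, adjusted p = 1.36e-09). With dexamethasone at 0.01 µM 2 rose and 4 fell (6.15% and 7.84% of all genes), and with hydrocortisone at 10 µM 1 rose and 6 fell (5.58% and 7.5%), GLUD1 up and SMS and ODC1 down in both. With hydrocortisone at 0.01 µM none passed.

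Genes of the amino acid response, a programme driven by the factor ATF4 when amino acids are scarce, went both ways. Of 12 tested, 2 rose and 4 fell with dexamethasone at 1 µM, beside 10.3% and 12.3% of all genes. STC2, a secreted glycoprotein, rose (0.67, adjusted p = 1.56e-08), while PSAT1, of serine synthesis (-0.57, adjusted p = 0.000199), TRIB3 (-0.68, adjusted p = 0.00311) and CEBPB (-0.55, adjusted p = 0.00429) fell. ATF4 itself, named for the programme after its values were seen, was lower too (-0.25, adjusted p = 0.0355). With dexamethasone at 0.01 µM STC2 rose (0.45) and ATF4 fell (-0.31), and with hydrocortisone at 10 µM 2 rose and 3 fell, beside 5.58% and 7.5% of all genes.

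The patterns over the 17 group means can be set beside each other as a description, since these points share hormone, day and scaling. SLC1A3, SLC7A2 and SLC38A2 ran together (Pearson r of mean log2 CPM 0.84, 0.819 and 0.791 for the pairs), and SLC1A5 ran with SLC7A1 (0.865). The 2 sets ran against each other, from -0.722 for SLC1A5 with SLC38A2 to -0.80 for SLC7A1 with SLC38A2. Among 11669 other genes the profile most like that of SLC1A3 was SLC26A6 (0.983), then FKBP5 (0.973) and TSC22D3 (0.97). For SLC7A2 it was TLR4 (0.961). SLC1A4 was most like SMIM14 (0.9), SLC1A5 like RBMS2 (0.892), SLC7A1 like LARP1 (0.932) and SLC38A2 like UGT2B7 (0.936).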

How the data were processed

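Total RNA of 43 HMC3 libraries was sequenced as paired ends after a stranded total RNA kit, per the labels' protocols. The authors deposited 1 table of raw read counts per Ensembl gene, with no normalisation, per the file headers and its values. FastQC, STAR, featureCounts (Subread) and GRCh38 are listed in the submitters' processing notes, without versions, settings or strand option. Each library was assigned by its title, and all value columns were used. Symbols came from a name table for 19978 of 20052 genes and from GENCODE v29 for 70, positions and exon lengths from GENCODE v29 (GRCh38).

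Genes were tested by quasi-likelihood in edgeR 4.0.16 under R 4.3.3, scaled by TMM, with filterByExpr (minimum count 10, minimum total 15), 1 fit over 17 groups with 26 residual degrees of freedom, and Benjamini-Hochberg adjustment over 16816 genes, threshold 0.05, in 16 comparisons. The scripts were tested on simulated data. The 4 single day 6 vehicle libraries are assumed to vary like the other groups. Carrier levels are TMM-scaled CPM, marker levels CPM without 14 ribosomal RNA genes. Precision is set by counts of 3 to 7881 per carrier and library. No libraries were repeats (variance 1.51 to 3.37 times counting noise in 39 pairs). Alternatives were DESeq2 1.42.0, RLE size factors, no filter, ribosomal genes left out, other controls, fits on 6 libraries, a replicate block, a flask block (limma 3.58.1) and leaving out each library. All 9 carriers are named, FKBP5 and TSC22D3 as checks, up to 4 passing genes per list and day 3 comparison by p, and the 3 genes (mean log2 CPM of at least 1) most like each passing carrier, of which the text gives the first or all; some items are not reported here. The carriers and lists were chosen with earlier results of these data known.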

Additional observations from a re-analysis of the deposited data

Results flagged for a closer look

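The carriers below differed between day 3 and day 6 in their response to hormone, by a test of the difference itself (edgeR's quasi-likelihood test, day 6 effect minus day 3 effect, each against all vehicle groups of its day). SLC1A4 was lower on day 6 than on day 3, relative to vehicle, after all 3 active doses, by -0.57 (dexamethasone 1 µM), -0.65 (dexamethasone 0.01 µM) and -0.61 (hydrocortisone 10 µM) on the log2 scale. On day 6 SLC1A4 stood at -0.05, -0.16 and -0.27 against vehicle, none of which passed. SLC7A2 was lower by this measure after dexamethasone at 0.01 µM (-0.64) and hydrocortisone at 10 µM (-0.64). After hydrocortisone at 10 µM SLC1A3 (-1.09) and SLC38A2 (-0.33) were lower, and SLC1A5 (0.46) and SLC7A1 (0.45) higher. Of these calls, that of SLC7A1 was lost in 14 of 29 alternatives and that of SLC38A2 in 5. The call of SLC1A4 was lost in 6 of 29 after dexamethasone at 1 µM and in 1 after hydrocortisone at 10 µM. No group had more than 3 libraries, so single libraries were not screened as outliers.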

How the results depend on the processing

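Of 36 calls of carriers over the 16 comparisons, 26 held in every alternative run and 0 changed sign in any. Over 54 settings 2608 of the carriers' values kept their side of the threshold, 51 lost and 41 gained a call, and 0 reversed. The number of carriers called moved as follows. After hydrocortisone at 10 µM on day 6 it was 2, and 1 with no low-count filter, 1 with the replicate block, 1 without the 7 libraries above 75% ribosomal counts and 0 against its own single vehicle library. For the washout change of dexamethasone at 0.01 µM it was 2, and 4 with ribosomal genes left out, 4 by DESeq2, 4 with the replicate block by flask and 4 without the 7 libraries. After dexamethasone at 1 µM on day 6 it was 2, 1 against its own single vehicle library, and 3 with RLE, by DESeq2 or without the 7 libraries. DESeq2 called 5 in place of 4 (dexamethasone 0.01 µM, day 3), 4 in place of 3 (dexamethasone minus hydrocortisone) and 7 in place of 6 (washout change, hydrocortisone 10 µM), the flask block 8 in the last. Leaving out 1 library at a time gave 6 to 7 (dexamethasone 1 µM, day 3), 4 to 5 (dexamethasone 0.01 µM, day 3), 3 to 5 (hydrocortisone dose), 3 to 5 (dexamethasone minus hydrocortisone), 0 to 2 (hydrocortisone 10 µM, day 6), 0 to 1 (washout change, dexamethasone 1 µM), 2 to 5 (dexamethasone 0.01 µM) and 4 to 6 (hydrocortisone 10 µM).

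Pairing by replicate number was checked by correlations of deviations. They were -0.0806 to 0.0408 over 9 pairs of hormone and own vehicle and -0.0739 to 0.1 over 12 day 3 and day 6 pairs. In groups of 3 such values cannot show that pairing is absent, and day 6 cells were reseeded from day 3 flasks. The main fit took all libraries as unpaired. With the replicate block 1 call of a carrier was lost and 2 were gained, and the flask block had a consensus correlation of 0.0735.

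Genes called in all moved by over 1.5 times in the cases below. Dexamethasone at 0.01 µM on day 3 had 2353, and 3633 against all vehicles, 713 on its own 6 libraries and 1522 without the 7. Hydrocortisone at 10 µM on day 3 had 2199, and 4066 against all vehicles. Hydrocortisone at 0.01 µM on day 3 had 0, and 3 against all vehicles. On day 6 dexamethasone at 1 µM had 1708 and 793 against its own vehicle library, and at 0.01 µM 14 and 7. Hydrocortisone at 10 µM had 150, and 250 with ribosomal genes left out, 238 by DESeq2 and 3 against its own vehicle library, and at 0.01 µM 15, and 9, 25 and 31 in those settings and 8 with the replicate block. The dexamethasone dose had 8, and 4 and 14 with ribosomal genes left out and by DESeq2. Vehicle day 6 against day 3 had 85, and 37 without the 7 libraries. With the flask block the washout change of dexamethasone at 1 µM had 431 in place of 283 and of hydrocortisone at 10 µM 2014 in place of 1172. Leaving out 1 library moved the count by over 1.5 times to 1396 (hydrocortisone 10 µM, day 3, without its replicate 4), 709 (its washout change, same library), 1064 (dexamethasone 1 µM, day 6, without replicate 2) and 159 (its washout change, without day 6 replicate 4). On day 6 hydrocortisone at 10 µM fell to 34, 67 and 77 without its replicates 3 and 4 and the vehicle of dexamethasone 1 µM, and vehicle day 6 against day 3 to 17 without that vehicle and 56 without that of hydrocortisone 0.01 µM. Counts under 20 ranged over 0 to 23 (dexamethasone 0.01 µM, day 6), 1 to 85 (hydrocortisone 0.01 µM, day 6) and 4 to 18 (dexamethasone dose). The causes were not tested. Depth limits SLC1A1 and SLC1A3 most, and the single vehicle libraries of day 6 limit what can be said after washout.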

Other observations

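The arginine carriers and arginine enzymes can be followed to day 6. After dexamethasone at 1 µM SLC7A2 passed on day 6 while SLC7A1 had a log2 change of -0.17, and the ratio of SLC7A2 to SLC7A1 per kilobase was 0.78 to 0.787 in its 3 libraries, 0.344 to 0.431 after dexamethasone at 0.01 µM, 0.394 to 0.502 after hydrocortisone at 10 µM and 0.281 to 0.354 in the 4 vehicle libraries. Of the 22 tested genes of the enzyme list 0 rose and 7 fell on day 6 (5.13% and 5.03% of all genes), among them ARG2, the mitochondrial arginase (-0.92, adjusted p = 0.00245), SMS (-0.27, adjusted p = 0.00912) and GPT2 (-0.45, adjusted p = 0.00214). GLUD1, which had risen on day 3, stood at 0.01 (adjusted p = 0.978). Of the 12 amino acid response genes 0 rose and 4 fell, beside the same shares of all genes, PSAT1 by the lowest adjusted p (-0.74, adjusted p = 5.05e-06). These genes of day 6 were chosen after their values were seen.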
